A study of Mus musculus with 6 samples.

Results

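The genes described are 10 regulators of the G1 phase of the cell cycle, given by name and matched by gene symbol among the 23154 genes of the count tables: the D cyclins Ccnd1, Ccnd2 and Ccnd3, the kinases Cdk4 and Cdk6, the Cip/Kip inhibitors Cdkn1a, Cdkn1b and Cdkn1c, and the INK4 inhibitors Cdkn2a and Cdkn2b. All 10 are listed in the tables, 8 had reads, and 7 had enough reads to be tested. The libraries came from C2C12, an established mouse myoblast line, as stable lines that express HA-tagged NUR77 (pINDUCER20b-HA-NUR77, 3 libraries) or GFP (pINDUCER20b-GFP, 3 libraries) when doxycycline is given. Both groups grew in medium with fetal calf serum and received doxycycline at 1 µg/mL for 18 hours, from 24 hours after seeding, so the drug is common to both. The labels name 1 stable line for each construct, and the sources used here do not say whether a line is a clone or a pool. A difference between the lines and an effect of NUR77 cannot be told apart. Each library came from its own dish, so p-values measure the spread between dishes.

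D cyclins bind and activate CDK4 and CDK6, and these kinases begin the phosphorylation of the retinoblastoma protein that releases E2F factors and lets a cell enter S phase. INK4 proteins block CDK4 and CDK6 directly, while Cip/Kip proteins bind cyclin and kinase complexes, mainly those of CDK2. In muscle precursors, exit from the cycle goes with high Cdkn1a and with cyclin D3, which is kept in differentiating cells, whereas cyclin D1 is known as the mitogen-driven D cyclin.

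Libraries held 13906096 to 22821446 counts. Of 12509 genes tested, 25.6% passed the threshold (adjusted p under 0.05, edgeR), 12.4% higher and 13.2% lower in HA-NUR77. Nr4a1, the mouse gene for NUR77, had 355 to 445 reads in the HA-NUR77 libraries and 196 to 417 in GFP, which overlap; the sources used here do not give the species of the insert, so this does not check the labels. Levels below are CPM, the reads of a gene per 1000000 counts of its library, scaled by TMM factors, and levels compared between genes are further divided by the kilobases of annotated exon (RPKM). Myoblast markers were all read: the most abundant, Des, stood at 3298 CPM in HA-NUR77 and 2500 CPM in GFP on average. Of 7 macrophage markers, Ptprc had 3 reads in each group and Adgre1 1 and 0, and the summed list ran from 4.67 to 7.03 CPM in HA-NUR77 and from 4.09 to 5.01 CPM in GFP, with Cd14 the most abundant. Csf1r, a macrophage growth factor receptor gene, was 1 of 3 tested macrophage markers called (33.3%, beside 12.4% of all genes called higher). It had 78 reads in HA-NUR77 and 19 in GFP (adjusted p = 0.0443 at a 3.28-fold rise). That call was lost when HA-NUR77 replicate 1 or 2, or GFP replicate 1 or 3, was left out, and its part in the results below was not tested. Csf1r had enough reads to be tested through its HA-NUR77 libraries, the group where it was higher (GFP: 2, 10 and 7 reads). The 5 endothelial markers summed to at most 1.30 CPM in any library, with Tek leading. Of 5 adipocyte markers, 4 had no read and Fabp4 had 5 and 4.

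Among the 7 tested members, Ccnd1, Ccnd2 and Cdk6 were higher in HA-NUR77, none was lower, and 4 did not pass. Ccnd1 rose 3.59-fold, Ccnd2 1.66-fold and Cdk6 1.32-fold, and the 4 others had fitted changes of at most 1.25-fold in either direction. The 3 rises among 7 stand beside 12.4% of all tested genes higher, and the members' median log2 fold change was 0.32 against 0.01 over all genes tested. For the count of 0 lower, 0 tested members were lower at an unadjusted p under 0.05, DESeq2 and limma-voom also called 0, and Cdkn1c was too low for the main test. With the replicate number as a block, Ccnd3 was also higher and Cdk4 and Cdkn1a were lower, beside 48.1% of all genes called in that fit, 23.5% higher and 24.6% lower. In 4 tested members, Ccnd1, Ccnd2, Ccnd3 and Cdk6, the groups did not overlap in CPM, all 4 with HA-NUR77 above. Such a separation was shown by 45.6% of all tested genes, 23% with HA-NUR77 above and 22.5% with it below.

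**Figure D1:**
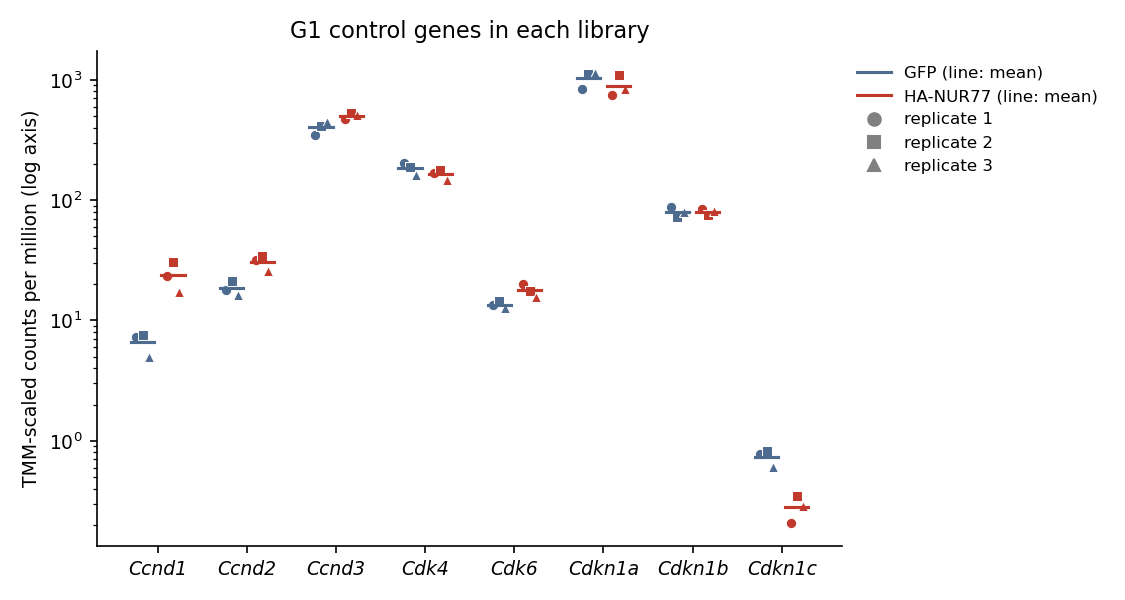
Level of each G1 control gene with reads in every library, in TMM-scaled CPM on a log axis; marker shapes are replicates 1 to 3, and lines are group means. The HA-NUR77 points lie above all GFP points for Ccnd1, Ccnd2, Ccnd3 and Cdk6, below them for Cdkn1c, and among them for Cdk4, Cdkn1a and Cdkn1b.

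Ccnd1, the D cyclin gene best known as a target of growth factor signalling, had the largest change of the members. Ccnd1 (ENSMUSG00000070348; GRCm38 chromosome 7, 144929931 to 144939925, minus strand) stood at 23.3, 30.7 and 17.1 CPM in HA-NUR77 replicates 1, 2 and 3 and at 7.36, 7.55 and 4.94 CPM in GFP replicates 1, 2 and 3. The lowest HA-NUR77 library was above the highest GFP library, and replicate 3 was the lowest in both groups. The log2 fold change was 1.84 (SE 0.25, edgeR adjusted p = 0.00268), with a 95% interval of 2.42-fold to 5.34-fold. Between libraries of the same number, the log2 ratio was 1.66, 2.02 and 1.79. Its exons share 1100 bases with LTO1 on the opposite strand, and the strand setting of the counting is not given, so reads there could be lost or misassigned; LTO1 itself stood at 23.9 ± 2.34 CPM in HA-NUR77 and 19.6 ± 3.41 CPM in GFP (SD, n = 3), with a log2 fold change of 0.28 (adjusted p = 0.164). Ccnd1 passed in all 14 alternative fits, with log2 fold changes from 1.61 to 2.02.

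Ccnd2, a second mitogen-responsive D cyclin gene, was higher by a smaller factor. Ccnd2 (ENSMUSG00000000184; chromosome 6, 127125162 to 127152193, minus strand) stood at 32.1, 34.1 and 25.9 CPM in HA-NUR77 and at 18.0, 21.4 and 16.4 CPM in GFP, replicates in order. The groups did not overlap, and replicate 3 was again the lowest of each. The log2 fold change was 0.73 (SE 0.14, edgeR adjusted p = 0.00999; 1.33-fold to 2.07-fold), and it passed in all 14 alternative fits. Across the 6 libraries the log2 levels of Ccnd1 and Ccnd2 correlated at r = 0.98, a description over libraries that share the group difference.

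Ccnd3, the D cyclin gene of differentiating muscle, was the most abundant of the 3 by far, and its call depended on the fit. It lies on GRCm38 chromosome 17 from 47505051 to 47599691, plus strand (ENSMUSG00000034165), and RefSeq (GRCm38.p6) gives it an outer and an inner start. The 250 bases before each start are shown, because Ccnd3 carried most D cyclin transcripts in every library, and capitals mark motif matches.
Ccnd3 outer start, chr17:47504801-47505050, plus strand: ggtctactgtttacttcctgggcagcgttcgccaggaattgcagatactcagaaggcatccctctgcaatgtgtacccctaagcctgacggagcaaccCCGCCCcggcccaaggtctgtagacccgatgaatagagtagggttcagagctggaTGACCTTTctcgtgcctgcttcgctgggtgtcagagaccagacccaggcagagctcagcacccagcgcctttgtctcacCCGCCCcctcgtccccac
Ccnd3 inner start, chr17:47593217-47593466, plus strand: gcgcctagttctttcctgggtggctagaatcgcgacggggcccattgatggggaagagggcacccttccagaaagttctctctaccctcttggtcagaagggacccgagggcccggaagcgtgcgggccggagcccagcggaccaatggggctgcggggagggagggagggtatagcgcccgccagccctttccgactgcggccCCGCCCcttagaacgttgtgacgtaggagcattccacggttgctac
Promoter entries were matched for 7 of the 10 members, with 10 windows in all. Ccnd1, Ccnd2 and Cdkn1c had no entry and were not searched. Both strands were searched for the NBRE (AAAGGTCA), the monomer site of NR4A receptors, for the E-box (CANNTG) and its CAGCTG form, the YY1 core (GCCAT), an E2F site (TTTGGCGC or TTTCCCGC) and the GC box (GGGCGG); the CAGCTG form overlaps the general E-box by definition. The outer Ccnd3 window holds 1 NBRE, read as TGACCTTT from −97 to −90 relative to the start, and 2 GC boxes. An NBRE stood in 1.34% of the 32851 windows of the same length in the table and in no other member window searched. The inner window holds 1 GC box, a motif found in 32.7% of all windows. These matches describe letters only, and the counts do not tell which start was used.

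Ccnd3 stood at 472, 527 and 514 CPM in HA-NUR77 replicates 1, 2 and 3 and at 348, 416 and 446 CPM in GFP replicates 1, 2 and 3. The HA-NUR77 libraries were all above the GFP libraries, with the closest 2 being HA-NUR77 replicate 1 and GFP replicate 3. The log2 fold change of 0.32 (SE 0.11) had an edgeR adjusted p of 0.0592, and an adjusted p of 0.000837 with the block. It also passed with DESeq2 (adjusted p = 0.026), with no filter, with library totals only, with upper-quartile factors and without GFP replicate 3. Bysl, which shares 361 exon bases with it on the opposite strand, was higher by a log2 of 0.28 (adjusted p = 0.0253).

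Per length, Ccnd3 made up 86.6%, 85.6% and 90.2% of the D cyclin sum in HA-NUR77 and 91.9%, 92.4% and 94.8% in GFP. The share of Ccnd1 was 7.60% ± 1.87 in HA-NUR77 and 2.90% ± 0.856 in GFP (SD, n = 3; two-sided exact permutation p = 0.1, the smallest that 3 against 3 allows), with no overlap. The share of Ccnd2 was 4.96% ± 0.654 against 4.04% ± 0.687 and overlapped (exact permutation p = 0.3). Per length, Ccnd2 over Ccnd1 was 0.691, 0.558 and 0.757 in HA-NUR77 and 1.22, 1.42 and 1.66 in GFP. That exchange of order rests on the exon lengths of 4709 bases for Ccnd1 and 9409 for Ccnd2: in CPM, Ccnd2 was above Ccnd1 in all 6 libraries. Without division by length, the Ccnd1 share differed between groups by 2.64 percentage points in place of 4.70. The summed D cyclin level was 65.8 ± 4.09 RPKM in HA-NUR77 and 49.3 ± 5.51 RPKM in GFP (SD, n = 3), again without overlap (exact permutation p = 0.1). The ratios between genes, here and below, and the sums were chosen after their values were seen.

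Of the 2 kinases, the minor Cdk6 was higher and the major Cdk4 was not called. The 250 bases before the RefSeq start of each are shown to set the partners side by side, with motif matches in capitals.
Cdk4, chr10:127063285-127063534, plus strand: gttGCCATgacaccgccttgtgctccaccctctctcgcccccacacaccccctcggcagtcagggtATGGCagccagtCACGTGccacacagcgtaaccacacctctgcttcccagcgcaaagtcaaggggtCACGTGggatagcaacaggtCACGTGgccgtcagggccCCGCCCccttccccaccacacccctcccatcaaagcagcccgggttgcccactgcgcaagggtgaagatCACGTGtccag
Cdk6, chr5:3343643-3343892, plus strand: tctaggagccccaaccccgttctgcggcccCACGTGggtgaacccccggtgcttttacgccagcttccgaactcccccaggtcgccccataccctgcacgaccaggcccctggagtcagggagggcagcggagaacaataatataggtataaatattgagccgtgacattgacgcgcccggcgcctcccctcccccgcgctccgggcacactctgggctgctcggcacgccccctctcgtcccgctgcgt
The Cdk4 window holds 4 E-boxes, all of the CACGTG form, with 2 YY1 cores and 1 GC box. CACGTG is the E-box form bound by MYC and related factors, and this form was counted after the sequences had been seen: it stood in 6.02% of all windows, and 7 of 32851 held at least 4. The Cdk6 window holds 1 CACGTG and none of the other motifs. Myc itself averaged 8.13 CPM in HA-NUR77 and 11.1 in GFP, and its log2 fold change of −0.44 had an edgeR adjusted p of 0.0825, and of 0.0141 with the block. Myc is named here after its value was seen, and a link between Myc and Cdk4 or Cdk6 was not tested.

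Cdk4 (ENSMUSG00000006728; GRCm38 chromosome 10, 127063534 to 127067920, plus strand) stood at 167, 177 and 147 CPM in HA-NUR77 and at 202, 188 and 162 CPM in GFP, replicates in order. The groups overlapped, yet each HA-NUR77 library was below the GFP library of the same number, and replicate 3 was the lowest in both. The log2 fold change was −0.16 (SE 0.11, edgeR adjusted p = 0.277), and with the block the adjusted p was 0.0333 at −0.16 (SE 0.06). The 95% interval without the block ran from a log2 of −0.41 to 0.08. Tspan31, with 641 shared exon bases on the opposite strand, had a log2 fold change of 0.13 (adjusted p = 0.264).

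Cdk6 (ENSMUSG00000040274; chromosome 5, 3341485 to 3531008, plus strand) stood at 20.0, 17.5 and 15.8 CPM in HA-NUR77 and at 13.5, 14.4 and 12.7 CPM in GFP. The groups did not overlap, with HA-NUR77 replicate 3 and GFP replicate 2 the closest. The log2 fold change was 0.40 (SE 0.11, edgeR adjusted p = 0.0367). This call was lost when HA-NUR77 replicate 1 or 2 was left out (adjusted p = 0.128 and 0.0689) and when GFP replicate 1, 2 or 3 was (adjusted p = 0.109, 0.0592 and 0.0903). Per length, Cdk4 made up 97.5% ± 0.233 of the 2 kinases in HA-NUR77 and 98.3% ± 0.141 in GFP (SD, n = 3; two-sided exact permutation p = 0.1, the smallest possible). The difference, HA-NUR77 minus GFP, was −0.769 percentage points per length and −2.90 without division by length.

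**Figure D2:**
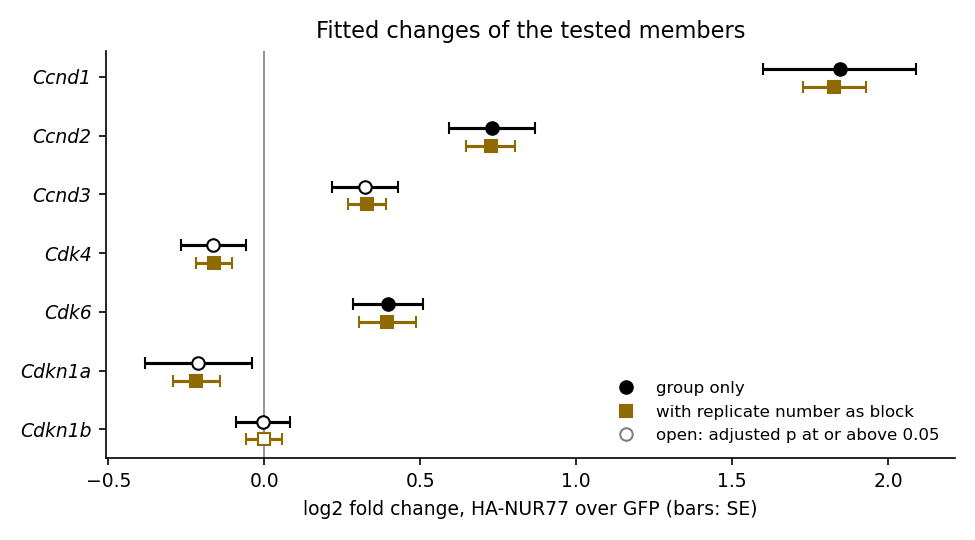
Fitted log2 fold change of each tested member, HA-NUR77 over GFP, with its SE, from the fit on group only (circles) and with the replicate number as a block (squares); filled markers passed an adjusted p of 0.05. Ccnd1 stands apart at 1.84, and the 2 fits place each gene at nearly the same change but differ in the calls of Ccnd3, Cdk4 and Cdkn1a.

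Cdkn1a, which encodes p21, a p53 target and an inhibitor that rises when myoblasts leave the cycle, was the most abundant member. It lies on chromosome 17 from 29090976 to 29100727, plus strand (ENSMUSG00000023067). It stood at 741, 1087 and 837 CPM in HA-NUR77 replicates 1, 2 and 3 and at 844, 1110 and 1134 CPM in GFP replicates 1, 2 and 3. The groups overlapped and the dishes of 1 group differed widely, with HA-NUR77 replicate 2 close to GFP replicate 2. The log2 fold change was −0.21 (SE 0.17, edgeR adjusted p = 0.384), with a 95% interval from 1.53-fold lower to 1.14-fold higher. With the block the adjusted p was 0.0331 at −0.22 (SE 0.08), from log2 ratios of −0.19, −0.03 and −0.44 at numbers 1, 2 and 3. Per length it exceeded 98.8% of tested genes.

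Cdkn1b, which encodes p27, an inhibitor held largely by protein turnover, showed no detectable difference. Cdkn1b (ENSMUSG00000003031; chromosome 6, 134920401 to 134925513, plus strand) stood at 83.9, 75.7 and 80.8 CPM in HA-NUR77 and at 88.3, 72.9 and 79.6 CPM in GFP. The ranges nearly coincided, and the 95% interval of the fold change ran from 1.15-fold lower to 1.15-fold higher (edgeR adjusted p = 0.983). Its exons share no base with another annotated gene.

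Cdkn1c, the imprinted gene of p57, had few reads. Its exons share 625 bases with Gm44732 on the opposite strand, a gene absent from the count tables, so reads there could be lost or misassigned. Cdkn1c (ENSMUSG00000037664; chromosome 7, 143458339 to 143461050, minus strand) had 4, 8 and 4 reads in HA-NUR77 and 13, 12 and 9 in GFP, and it fell below the count filter of the main test. Every HA-NUR77 library was below every GFP library in CPM. Summed over each group, 16 reads against 34 gave a depth-scaled ratio of 2.58 in favour of GFP (exact binomial 95% interval 1.39 to 5.01, counting error only). With no filter its log2 fold change was −1.35 (edgeR adjusted p = 0.0488), and by DESeq2 −1.38 (adjusted p = 0.105). With 1 library left out, Cdkn1c passed the filter in every fit except that without GFP replicate 1. It passed through GFP, the group where it was higher, so these fits give no separate support. It was called lower without HA-NUR77 replicate 2 or GFP replicate 3. It was not called without HA-NUR77 replicate 1 or 3 or GFP replicate 2. Of 12 listed genes of the Cdkn1c imprinted domain and the flanking region, 7 were tested, 1 was higher and 0 lower. That is 14.3% called, beside 12.4% of all genes called higher and 25.6% called in either direction. At an unadjusted p under 0.05, 1 was lower, and DESeq2 and limma-voom called 0 lower. The block called 3 higher and 1 lower, beside 23.5% and 24.6% of all genes in that fit. The rise without the block was in Nap1l4, a histone chaperone gene (148 and 121 CPM in HA-NUR77 and GFP, adjusted p = 0.0251 at a log2 fold change of 0.30). Nap1l4 was not called when either of HA-NUR77 replicates 1 and 3 or of GFP replicates 1 and 2 was left out. Leaving out GFP replicate 3 gave 2 higher. Phlda2 and Ascl2 had no read.

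Per length, Cdkn1a made up 93.2% ± 1.49 of the Cip/Kip sum in HA-NUR77 and 94.0% ± 1.48 in GFP (SD, n = 3; exact permutation p = 0.6). Cdkn1b supplied 6.76% ± 1.495 and 5.86% ± 1.46, and Cdkn1c 0.0511% ± 0.00571 and 0.119% ± 0.0293, without overlap for Cdkn1c alone (exact permutation p = 0.6 and p = 0.1). The Cdkn1c difference was −0.0684 percentage points per length and −0.0387 without division by length. The summed Cip/Kip level was 268 ± 49.4 RPKM in HA-NUR77 and 308 ± 43.7 RPKM in GFP, and overlapped (exact permutation p = 0.2).

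The INK4 genes Cdkn2a, which encodes p16 and p19ARF, and Cdkn2b, which encodes p15, had no read in any of the 6 libraries. Both lie on chromosome 4 on the minus strand, Cdkn2a (ENSMUSG00000044303) from 89274471 to 89294653 and Cdkn2b (ENSMUSG00000073802) from 89306299 to 89311039. A count of 0 allows up to 0.131 to 0.215 CPM for each library, and up to 0.0293 CPM over all 6, at a floor of 3 counts and for counting error only. No 50-base window of either gene occurs in another gene's annotated transcripts. Mtap, which encodes a methionine salvage enzyme, has its start at −157.5 kb from that of Cdkn2a and had 4040 reads in HA-NUR77 and 2953 in GFP; its log2 fold change was 0.16 (adjusted p = 0.143). Klhl9, an adaptor of a ubiquitin ligase and the most abundant listed neighbour, had 5868 and 5153 reads, both genes therefore being well covered. On the Cdkn2b side, Dmrta1 had no read and Zfp352 had 5 in each group. Mtap, Dmrta1 and Zfp352 are named for their position, with their values known. Of 21 listed genes with a start within 1000 kb, Cdkn2a and Cdkn2b included, 5 were tested. The 4 with no read in any library were Cdkn2a and Cdkn2b themselves, Dmrta1 and Ifnb1. Hacd4, an enzyme gene of fatty acid elongation at −855.7 kb, was the 1 called of the 5 tested, beside 25.6% of all tested genes called. Hacd4 was lower (607 reads in HA-NUR77, 948 in GFP, adjusted p = 0.00139 at a log2 fold change of −0.95). It is named after its value was seen. Of the 5 neighbours in the shorter list for the locus, which leaves out Hacd4, 2 were tested and 0 passed, with 0 at an unadjusted p under 0.05 and 0 by DESeq2 or limma-voom; the block called Mtap higher. Whether the locus is intact in these lines was not tested. The other INK4 genes were read: Cdkn2c stood at 12.6 CPM in HA-NUR77 and 12.0 CPM in GFP (adjusted p = 0.717).

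**Figure D3:**
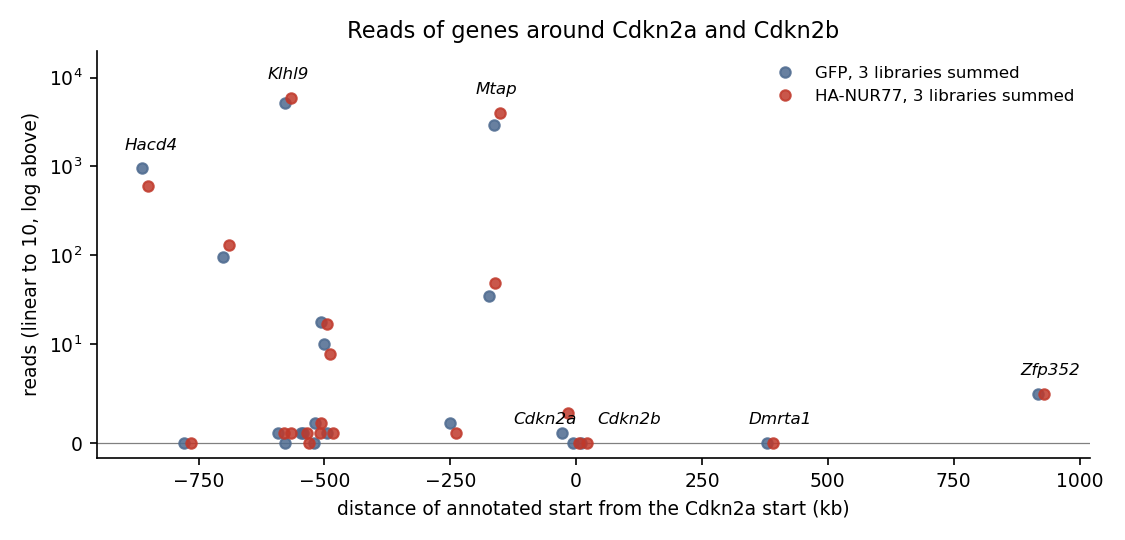
Reads of listed genes around Cdkn2a, summed over the 3 libraries of each group, by distance of the annotated start from that of Cdkn2a in kb; the vertical axis is linear to 10 and logarithmic above, and the 2 groups are drawn slightly apart. Mtap and Klhl9 have at least 2953 reads in each group, and Cdkn2a, Cdkn2b and Dmrta1 lie at 0.

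Per length, the order of the members in GFP was Cdkn1a (290 ± 45.2 RPKM), Cdk4 (56.5 ± 6.26), Ccnd3 (45.9 ± 5.73), Cdkn1b (17.6 ± 1.70), Ccnd2 (1.98 ± 0.274), Ccnd1 (1.40 ± 0.309), Cdk6 (0.966 ± 0.0632) and Cdkn1c (0.360 ± 0.0549), as mean ± SD over 3 libraries. In HA-NUR77 it was Cdkn1a (250.04 ± 50.3 RPKM), Ccnd3 (57.5 ± 3.27), Cdk4 (50.4 ± 4.68), Cdkn1b (17.6 ± 0.904), Ccnd1 (5.03 ± 1.44), Ccnd2 (3.26 ± 0.460), Cdk6 (1.27 ± 0.149) and Cdkn1c (0.138 ± 0.0350). Ccnd3 and Cdk4 stood in the other order than in GFP, and so did Ccnd1 and Ccnd2. Within libraries, Ccnd3 over Cdk4 was 1.05, 1.10 and 1.29 in HA-NUR77 and 0.639, 0.820 and 1.02 in GFP. This order too rests on the division by length: in CPM, Ccnd3 was above Cdk4 in all 6 libraries.

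The ratio of the summed D cyclins to the 2 kinases was 1.18, 1.26 and 1.40 in HA-NUR77 and 0.684, 0.872 and 1.06 in GFP. The ratio of Cip/Kip inhibitors to D cyclins was 3.65, 4.60 and 3.90 in HA-NUR77 and 5.97, 6.42 and 6.28 in GFP. Neither ratio overlapped between the groups (two-sided exact permutation p = 0.1 for each, the smallest that 3 against 3 allows). These are ratios of transcripts and carry no measure of protein or of kinase activity.

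**Figure D4:**
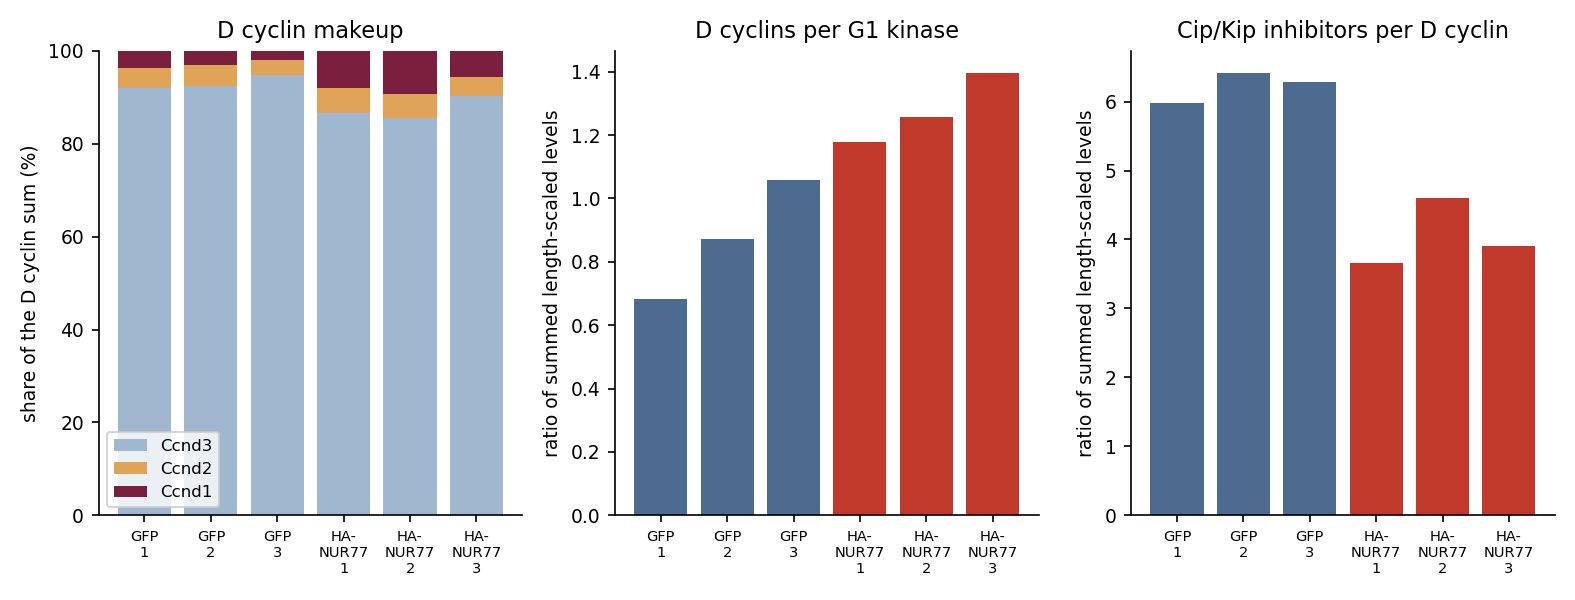
Left, share of each D cyclin in the D cyclin sum of every library, in percent; middle and right, ratios of summed length-scaled levels per library, with bars starting at 0. Ccnd1 takes 5.59% to 9.27% in HA-NUR77 and 1.96% to 3.62% in GFP, and the ratio of Cip/Kip inhibitors to D cyclins is below 5 in each HA-NUR77 library and above 5 in each GFP library.

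Of the other listed regulators of the G1/S step, 12.5% were called, beside 25.6% of all tested genes. Of 16 tested, 1 was higher and 1 lower: Cdkn2d, an INK4 inhibitor gene, averaged 19.3 CPM in HA-NUR77 and 13.6 in GFP (adjusted p = 0.0192 at a log2 fold change of 0.49), and Cdk7, the kinase that activates other cyclin-dependent kinases, 43.8 and 54.9 CPM (adjusted p = 0.0113 at −0.33). The list's median log2 fold change was −0.02. Cdkn2d was not called when either of HA-NUR77 replicates 1 and 3 or of GFP replicates 1 and 2 was left out. With the block, 2 were higher and 2 lower, beside 23.5% and 24.6% of all genes in that fit. The additions were Cdk2 and Fbxw7, the ubiquitin ligase subunit that recognises cyclin E. Of 13 tested pocket protein and E2F genes, E2f6, a repressor, was higher (0.37, SE 0.09, adjusted p = 0.0232) and E2f3, an activator, lower (−0.40, SE 0.07, adjusted p = 0.00868). That is 15.4% called, beside 25.6% of all genes. The block called 4 higher and 1 lower, beside 23.5% and 24.6% of all genes. E2f6 lost its call when HA-NUR77 replicate 2 or 3, or GFP replicate 1 or 2, was left out.

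Of 20 tested S-phase and proliferation genes, 4 rose and 0 fell, and the median log2 fold change was 0.33. That is 20% called, all of them higher, beside 12.4% of all genes called higher and 25.6% called in either direction. For the count of 0, none was lower at an unadjusted p under 0.05, and DESeq2 and limma-voom called 0. Those that rose were Gmnn, the inhibitor of origin licensing (5.02 against 2.77 CPM, adjusted p = 0.0189), and the helicase subunits Mcm2 (27.2 against 20.0 CPM, adjusted p = 0.028), Mcm3 (21.8 against 14.3 CPM, adjusted p = 0.0297) and Mcm4 (adjusted p = 0.0488), the last named after its value was seen. With the block, 13 of the 20 were higher, beside 23.5% of all genes higher in that fit. With libraries left out the count was 0, 1 and 2 for HA-NUR77 replicates 1, 2 and 3 and 0, 8 and 1 for GFP replicates 1, 2 and 3. Over all genes, those fits called 642 to 1489 higher. In bulk RNA, here and in every comparison, fewer cells of a type and less RNA per cell cannot be told apart.

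Of 13 tested p53 targets, 0 were higher and 1 lower, Trp53inp1, a stress-induced autophagy regulator (56.3 CPM in HA-NUR77, 82.7 CPM in GFP, adjusted p = 0.0333 at a log2 fold change of −0.56). That is 7.69% called, beside 13.2% of all genes called lower and 25.6% called in either direction. For the count of 0, 2 were higher at an unadjusted p under 0.05, DESeq2 called 1 and limma-voom 0, and no filter or upper-quartile factors gave 2, Ccng1 and Bax. The block called 7 higher and 2 lower, beside 23.5% and 24.6% of all genes in that fit. The call of Trp53inp1 was lost when HA-NUR77 replicate 2 or 3, or GFP replicate 1 or 2, was left out. Ccng1 was higher in the fit that left out HA-NUR77 replicate 2, and Bax in the fit that left out replicate 3 of that group. The list, which does not hold Cdkn1a, had a median log2 fold change of 0.16.

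Genes of myogenic differentiation were abundant in both groups. Of 15 tested, the embryonic and perinatal myosin heavy chains Myh3 (4405 against 2872 CPM, adjusted p = 0.022) and Myh8 (346 against 199.7 CPM, adjusted p = 0.00331) rose and the regulator Myf6 fell (0.415 against 1.47 CPM, adjusted p = 0.0268). The list summed to 15919 to 18522 CPM in HA-NUR77 and 11222 to 15245 CPM in GFP, without overlap, a sum in which Acta1 and Myh3 weigh heavily. The 3 calls are 20% of the list, beside 25.6% of all genes, and the part of these genes in the results on the members was not tested. The block called 9 higher and 3 lower, beside 23.5% and 24.6% of all genes in that fit. Genes of the list that were higher numbered 1 when HA-NUR77 replicate 2 or 3, or GFP replicate 1, was left out, which ended the call of Myh3, and 7 when GFP replicate 3 was. Myf6 lost its call when any HA-NUR77 replicate or GFP replicate 1 was left out. The 8 myoblast markers summed to 5888 to 6663 CPM in HA-NUR77 and 3766 to 4959 CPM in GFP, also without overlap, a sum in which Des and Itga7 weigh heavily. Of the 8, 3 were called higher (37.5%, beside 12.4% of all genes called higher) and Des was not called (adjusted p = 0.0872). Myf5, Vcam1 and Pax7 had log2 fold changes of −0.23, −0.43 and −0.28, none of them called in the main fit. The part of the myoblast markers was likewise not tested. The fibroblast markers, led by Dcn and with Tcf21 at 0, summed to 356 to 526 CPM in HA-NUR77 and 364 to 459 CPM in GFP. Of 4 tested fibroblast markers, 3 were called (75%, beside 25.6% of all genes). Pdgfra, a growth factor receptor gene, was lower (12.7 CPM in HA-NUR77, 24.8 CPM in GFP, adjusted p = 0.00085), and so was Pi16 (19.4 and 28.8 CPM, adjusted p = 0.00391). Dpt, an extracellular matrix gene, was higher (59 and 17 reads, adjusted p = 0.0180). The Dpt call was lost when HA-NUR77 replicate 1 or GFP replicate 2 was left out, and the part of these markers was not tested. Dpt passed the count filter through its HA-NUR77 libraries and Myf6 through its GFP libraries, the group where each was higher. Csf1r, Itga7, Myf5, Vcam1, Pax7, Pdgfra, Pi16 and Dpt are named after their values were seen.

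In a list that mixes mitogen-induced genes with related regulators, more genes fell than rose. Besides the 3 described below, Smad7, Id1 and Ets1 fell. Myc, Fos, Egr1, Ets2 and Id2 had log2 fold changes below 0 and Fosl1, Foxo3 and Klf4 above 0, none called in the main fit. These genes are named after their values were seen. Of 15 tested, 6 fell and 1 rose (46.7% called, beside 25.6% of all genes), and the median log2 fold change was −0.60. Id3, an inhibitor of MyoD-type factors, stood at 4.60 against 21.7 CPM (log2 fold change −2.22, adjusted p = 0.000141), Foxo1, a transcription factor that restrains the cycle, at 35.4 against 70.8 CPM (−0.996, adjusted p = 0.0020) and Junb, an AP-1 subunit, at 41.0 against 65.5 CPM (−0.67, adjusted p = 0.00226). Jun, another AP-1 subunit, was the rise (adjusted p = 0.0405), and of the 6 fits with a library left out, it was called where that library was GFP replicate 2 and in no other. The block called 2 higher and 10 lower, beside 23.5% and 24.6% of all genes in that fit.

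**Figure D5:**
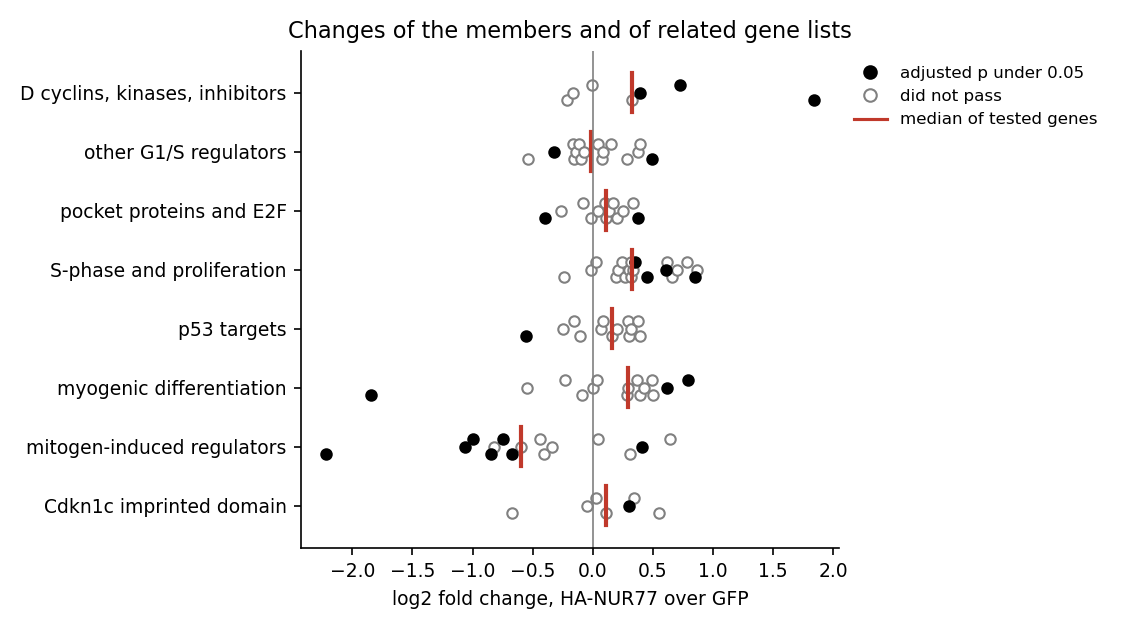
Log2 fold change, HA-NUR77 over GFP, of each tested gene of the members and of the related lists; filled points passed an adjusted p of 0.05, and red lines are medians. Ccnd1 is the rightmost point at 1.84, and the list of mitogen-induced and related regulators has its median at −0.60.

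The genes whose log2(CPM + 0.5) followed each tested member most closely over the 6 libraries were taken from 8805 tested genes averaging 10 CPM or more. For Ccnd1 Maged2 (Pearson r = 0.998) is given, and for Ccnd2 they were Ube2l6 (0.998) and Tanc2 (0.998). For Ccnd3 they were Impdh1 (0.994) and Dmpk (0.993), and for Cdk4 Ctnnb1 (0.994) and Sp1 (0.992). Cdk6 was followed by Prg4 (0.992) and Dusp4 (0.991), Cdkn1a by Rgl3 (0.999) and Trp53bp1 (0.995), and Cdkn1b by Lrrn1 (0.987) and Ahcyl2 (0.971). With so many genes and 6 libraries that share a group difference, values this high are a description only.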

How the data were processed

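RNA-seq counts were available for 3 HA-NUR77 and 3 GFP libraries. Values are raw counts per Ensembl gene, not normalised, in the tables the authors deposited. Per the submitters' processing notes, TopHat2 2.1, HTSeq and DESeq2 were named, with build mm10; the sources used here do not give the annotation release or strand setting. Depth was 13906096 to 22821446 counts per library, and precision for low genes is limited by their reads. Symbols, coordinates and exon lengths came from GENCODE M21 on GRCm38 (22872 IDs matched), and promoter sequences from RefSeq GRCm38.p6.

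The main test was edgeR 4.0.16 (R 4.3.3) (quasi-likelihood, robust, TMM factors), with no term besides group. filterByExpr kept genes at a minimum count of 10, with Benjamini-Hochberg adjustment over 12509 genes. The main fit was also run on simulated counts, drawn with the gene-wise spread of the block fit and no replicate effect. That run does not show the error rate of the main test on these libraries. Alternatives were DESeq2 1.42.0, limma-voom 3.58.1, other size factors and filters, a replicate block and each library left out. Deviations of same-numbered libraries from their group means correlated at 0.25, 0.55 and 0.47, each over the 0.1 set for pairing, so the pairing rests on the data, not on a label. No 2 libraries agreed within sampling noise (smallest chi-square per degree of freedom 10.9). Within-library shares were compared by exact permutation. The rule for named genes took every member, up to 3 called genes (or the most abundant) of each related list, the most abundant marker of each cell type, and 2 genes most like each tested member, of which 1 is not reported here. The members and lists were chosen with earlier results of these data known.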

Additional observations from a re-analysis of the deposited data

How the results depend on the processing

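Ccnd1 and Ccnd2 kept their direction and call in all 14 alternative fits. Ccnd3 kept its direction and was called in 6 of 14, Cdk6 was called in 9, and Cdk4 and Cdkn1a were called with the replicate block alone. The block also called Ccnd3 higher and changed no other member's call. Its pairing is an assumption drawn from the data. Cdkn1b changed sign around 0, with log2 fold changes of 0.0079 with library totals only, 0.018 with upper-quartile factors, 0.038 when HA-NUR77 replicate 2 was left out and 0.071 when GFP replicate 1 was; leaving out 1 library gave −0.067 to 0.071. Members lower numbered 2 with the block and 1 with no filter (Cdkn1c), and 0 to 1 with 1 library left out, where members higher numbered 2 to 3. Over all genes, the block gave 2942 higher and 3071 lower, and leaving out 1 library gave 642 to 1489 higher and 850 to 1572 lower; the cause was not tested. Without division by exon length, the difference between groups (HA-NUR77 minus GFP, in percentage points) was 2.64 for the Ccnd1 share of D cyclins, −2.90 for the Cdk4 share of the kinases and −0.0387 for the Cdkn1c share of Cip/Kip inhibitors, against 4.70, −0.769 and −0.0684 per length. Few reads limit Cdkn1c, and no fold can be given for Cdkn2a or Cdkn2b.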
